A study of Mus musculus with 51 samples.

Results

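The 10 WNT ligands described here, Wnt2b, Wnt3, Wnt4, Wnt5a, Wnt5b, Wnt6, Wnt7b, Wnt10a, Wnt10b and Wnt11, were followed through early limb development in wild-type FVB mice. They were found by gene symbol among the probe sets that name 1 gene, which gave 17 probe sets for these 10 of 18194 genes. Wnt5a had 4 probe sets, Wnt4, Wnt5b, Wnt6 and Wnt7b had 2 each, and the other 5 ligands had 1. Gene expression was measured on 51 whole-genome arrays of forelimb from E9.5 to E13.5, of hindlimb at the same stages without E9.5, and of whole embryo at all 5 stages. Whole embryo had 2 arrays per stage. Forelimb had 3 arrays at E9.5, 4 at E11.5 and 5 at each of the other 3 stages, and hindlimb had 4 at E10.5 and 5 at each later stage. No animal was treated or carried a targeted allele. Each sample came from 1 embryo, and the limb replicates of a stage shared a litter, so stage and litter cannot be told apart and the p-values below measure only the spread between these samples. In such bulk samples, fewer cells of a type and less RNA per cell cannot be told apart either.

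WNT proteins are secreted, lipid-modified signals. Porcn attaches the lipid in the cell that makes them and Wls carries them to its surface. On the receiving cell, ligands such as Wnt3, Wnt6, Wnt7b, Wnt10a and Wnt10b, several of them products of the ectoderm, act through Frizzled receptors and Lrp5 or Lrp6 to stabilize beta-catenin, which then works with Tcf and Lef factors in the nucleus. Ligands such as Wnt5a and Wnt11 act mainly without beta-catenin, through Ror2 and the planar polarity genes. In the limb, ectodermal WNT signals are needed to form and keep the apical ectodermal ridge, the strip of epithelium that drives outgrowth, while mesenchymal Wnt5a is needed for the limb to lengthen.

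All values below are levels on a log2 intensity scale, and a comparison is a difference of such levels, so that a difference of 1 is a fold change of 2. A call needed both a fold change of at least 2 and an adjusted p under 0.001 in limma, and "up-regulated" and "down-regulated" are used of called genes. Counts by an unadjusted or adjusted p alone, without the fold threshold, stand without the share of all genes. They cannot be read against the shares of called genes. The 13 arrays of whole embryo and of E9.5 forelimb differed from the 38 limb arrays from E10.5 on in the control for spiked Dap transcript, which lay between 8.80 and 11.84 against 2.85 and 3.31, and in the Gapdh level at the 3′ end less that at the 5′ end, which lay between 1.48 and 2.85 against -0.10 and 0.16. Every comparison of a limb with whole embryo from E10.5 on, and that of E10.5 with E9.5 forelimb, crosses these array sets, and their part in the results was not tested. The comparisons of forelimb with hindlimb and of later stages of a limb lie within the 38 arrays. The E9.5 arrays do not match in these controls either, since Dap lay between 11.48 and 11.84 in forelimb and at 9.96 and 10.04 in whole embryo, and the Gapdh difference between 1.48 and 1.73 and at 2.03 and 2.85, without overlap. Within the 38 arrays, those of E13.5 had medians over all probe sets of 5.37 to 5.42, against 5.21 to 5.34 at the earlier stages, also without overlap. The 2 arrays whose title and source name disagree were placed by title. Their expression of 1000 variable genes correlated at r = 0.989 with the titled group for both, against 0.821 and 0.931 with the other group. The limb type genes also followed the titles, with Tbx5, the forelimb factor, between 7.62 and 9.94 on all forelimb arrays and between 5.11 and 6.27 on all hindlimb arrays, and Pitx1, the hindlimb factor, between 4.47 and 5.67 and between 9.81 and 10.9.

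The RefSeq promoter table of build GRCm38.p6 holds entries for 7 of the 10 ligands and none for Wnt5a, Wnt7b and Wnt10a. The 250 bases before a start are shown for Wnt6, Wnt11 and Wnt4, because these are called below and have different time courses, with each match of a searched motif, on either strand, in capitals. The motifs were the TATA box TATAAA, the CCAAT box CCAAT, the GC box GGGCGG and the core CTTTGA bound by Tcf and Lef factors, which 12.4%, 33.8%, 32.7% and 13.8% of all 32851 promoters held in the same window. The Wnt6 stretch lies at chr1:74771642-74771891 on the + strand, the first of the Wnt11 starts at chr7:98834862-98835111 on the + strand, and the Wnt4 stretch at chr4:137277385-137277634 on the + strand.
Wnt6: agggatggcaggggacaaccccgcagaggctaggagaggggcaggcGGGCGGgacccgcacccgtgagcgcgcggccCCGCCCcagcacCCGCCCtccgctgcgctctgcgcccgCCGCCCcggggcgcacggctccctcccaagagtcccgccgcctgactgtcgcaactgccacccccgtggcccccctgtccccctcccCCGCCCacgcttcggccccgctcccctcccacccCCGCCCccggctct
Wnt11: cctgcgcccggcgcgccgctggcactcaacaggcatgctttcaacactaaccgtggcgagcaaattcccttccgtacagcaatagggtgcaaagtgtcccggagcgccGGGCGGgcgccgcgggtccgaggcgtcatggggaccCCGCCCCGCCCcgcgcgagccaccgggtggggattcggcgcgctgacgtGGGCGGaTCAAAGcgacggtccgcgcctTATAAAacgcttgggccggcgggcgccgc
Wnt4: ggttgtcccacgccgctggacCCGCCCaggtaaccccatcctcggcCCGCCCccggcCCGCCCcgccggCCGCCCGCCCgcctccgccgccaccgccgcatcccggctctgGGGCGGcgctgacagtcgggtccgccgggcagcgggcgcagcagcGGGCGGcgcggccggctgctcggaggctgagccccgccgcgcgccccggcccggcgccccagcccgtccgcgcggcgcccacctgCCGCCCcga
Wnt6 and Wnt4 held 6 and 8 GC boxes, some of them overlapping, and no match to the other motifs, with a GC content of 79.6% and 85.2% against a median of 52.4% over all promoters. Wnt11 held 4 GC boxes, a TATA box that begins 29 bases before the start and a Tcf and Lef core that begins 50 bases before it, at a GC content of 70.8%. A second Wnt11 start, at chr7:98838595-98838844 on the + strand, held none of the motifs. A match is a description of the letters alone, and none of the arrays measured binding.

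Against whole embryo of the same stage, 4 ligands were up-regulated in at least 1 limb group and none was down-regulated. Wnt6 was highest in the earliest bud, and Wnt5a was high in the growing limb. Wnt4 was called in E11.5 forelimb alone, and Wnt11 was highest in E12.5 forelimb. At E9.5, 2 of the 10 ligands were up-regulated, beside 2.08% of all genes up and 1.61% down. In forelimb, 3 were up-regulated at E10.5 (10.49% of all genes up, 3.44% down), 3 at E11.5 (11.7% and 3.64%), 2 at E12.5 (8.52% and 5.44%) and 1 at E13.5 (5.54% and 8.12%). In hindlimb, 1 was up-regulated at E10.5 (9.77% and 3.41%), 2 at E11.5 (11.8% and 3.95%), 1 at E12.5 (7.11% and 5.43%) and 2 at E13.5 (6.1% and 8.35%). A single ligand is 10% of the list, so a count of 1 lies near the share of all genes. The median difference of the ligands from whole embryo lay between -0.05 in E12.5 hindlimb and 0.36 in E9.5 forelimb, against medians over all genes of 0.08 in E9.5 forelimb, 0.03 in E10.5 forelimb and -0.06 in E13.5 forelimb. The calls of 90 values rest on 2 whole-embryo arrays per stage.

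**Figure D1:**
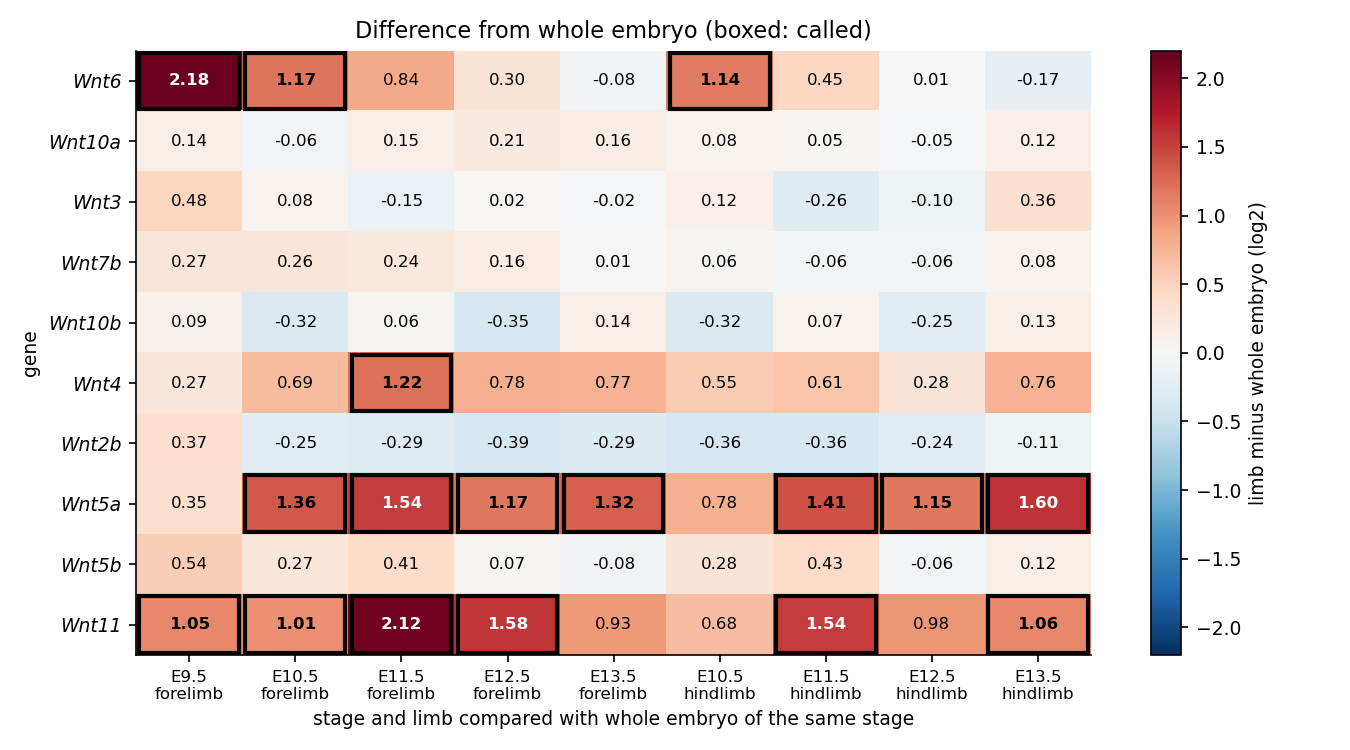
Difference in level between each limb group and whole embryo of the same stage (log2, colour and printed value) for the 10 ligands, with called values boxed and in bold. The 17 boxes belong to Wnt6, Wnt4, Wnt5a and Wnt11, and all are positive, from 1.01 to 2.18.

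Wnt6, a ligand of the limb ectoderm, showed the largest difference from whole embryo of the 90 ligand values, and it was found in the earliest bud. The E9.5 forelimb arrays read 8.55, 8.79 and 8.73, and the E9.5 whole-embryo arrays 7.09 and 5.93. The lowest forelimb array thus lay above both embryo arrays, which were themselves far apart (SD 0.82). The difference was 2.18 (SE 0.18, 4.53-fold, adjusted p = 3.72e-13), and it stayed between 1.60 and 2.76 when any array was left out. Fitted on those 5 arrays alone, its adjusted p was 0.0320 and the call was lost. In E10.5 forelimb Wnt6 read 7.23, 6.83, 7.34, 7.12 and 6.73, in E10.5 hindlimb 7.04, 7.10, 7.02 and 6.92, and in whole embryo 5.67 and 6.08. Both limbs lay above both embryo arrays, by 1.17 (SE 0.16, adjusted p = 4.10e-08) in forelimb and 1.14 (SE 0.17, adjusted p = 1.60e-07) in hindlimb. Without the first E10.5 whole-embryo array the differences were 0.97 and 0.94, and after quantile normalization 0.95 and 0.998, all under the fold threshold.

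The later stages showed a smaller excess of Wnt6 and then none. At E11.5, forelimb read 6.75, 6.93, 7.02 and 6.86, hindlimb 6.68, 6.45, 6.63, 6.30 and 6.45, and whole embryo 5.94 and 6.16. The forelimb excess of 0.84 (adjusted p = 3.77e-05) missed the fold threshold. At E12.5, forelimb read 6.82, 6.78, 6.86, 6.76 and 6.76, hindlimb 6.51, 6.51, 6.54, 6.47 and 6.52, and whole embryo 6.42 and 6.58. At E13.5, forelimb read 6.10, 6.55, 6.34, 6.35 and 6.45, hindlimb 6.24, 6.35, 6.40, 6.35 and 5.97, and whole embryo 6.36 and 6.51. By then the limb and embryo arrays overlapped, with differences of -0.08 and -0.17. Between E9.5 and E10.5 forelimb, Wnt6 was down-regulated by a log2 difference of -1.64 (SE 0.14, adjusted p = 2.67e-13), the only ligand called in that step, where 7.54% of all genes were called. That step crosses the array sets, whose part in it was not tested.

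Wnt6 was lower at E13.5 than at E10.5 in both limbs and higher in whole embryo. Its change between these stages was -0.69 (SE 0.12) in forelimb and -0.76 (SE 0.13) in hindlimb, neither past the fold threshold, against 0.56 in whole embryo. The change in a limb less that in whole embryo, in which each term compares limb with limb or embryo with embryo arrays, was -1.25 (SE 0.23, adjusted p = 1.95e-05) for forelimb and -1.32 (SE 0.23, adjusted p = 1.11e-05) for hindlimb. Wnt6 was the only ligand called in these comparisons, where 12.3% and 12% of all genes were called. After quantile normalization Wnt5a was also called for hindlimb, at 1.04 (adjusted p = 6.42e-05) in place of 0.81. Without the first E10.5 whole-embryo array both calls were lost, at -1.04 (adjusted p = 0.00175) and -1.11 (adjusted p = 0.00105). Both Wnt6 probe sets were highest in E9.5 forelimb and differed later. At E9.5 the excess over whole embryo was 1.84 by probe set 1419708_at and 2.52 by 1435980_x_at, and at E10.5 in forelimb 0.87, which was not called, and 1.48. From E10.5 to E13.5 the change was -0.44 and -0.95 in forelimb and -0.40 and -1.12 in hindlimb. Less the change in whole embryo, 1419708_at, the brighter of the pair, gave -1.0 (adjusted p = 0.00131) and -0.96 (adjusted p = 0.00253), so that neither limb was called by it, while 1435980_x_at gave -1.5 and -1.67, both called.

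Markers of the surface ectoderm were measured beside Wnt6. At E9.5, 4 of 14 were up-regulated in forelimb against whole embryo and none was down-regulated, and at E10.5 these counts were 8 and 0, beside 2.08% and 10.49% of all genes up. Their summed level lay between 12.22 and 12.37 in E9.5 forelimb and between 11.88 and 12.02 in E10.5 forelimb, against 11.46 to 12.46 and 11.18 to 11.30 in whole embryo. From E10.5 to E13.5 forelimb, 4 of the 14 were up-regulated and 4 down-regulated, and the summed level at E13.5 was 12.07 to 12.59. Krt5, a keratin of the basal epidermis, averaged 7.49 in E9.5, 8.62 in E10.5 and 10.2 in E13.5 forelimb. It is an example of a marker that rose, and the 4 down-regulated markers went the other way. No marker is listed at 0, but the lowest log2 value of any probe set was 2.29, so this does not show detection. The summed level of the apical ridge markers was lower in the later limb, while single markers went both ways in hindlimb. Of 10, none was up-regulated and 2 were down-regulated from E10.5 to E13.5 in forelimb, and 2 and 3 in hindlimb, beside 10.6% and 11.1% of all genes called. Their summed level was 10.14 to 10.29 in E9.5 forelimb, 10.14 to 10.27 in E10.5 forelimb and 9.01 to 9.15 in E13.5 forelimb, 10.27 to 10.45 and then 9.02 to 9.21 in hindlimb, and 9.21 to 9.25 and then 9.24 to 9.35 in whole embryo. Fgf8, the growth factor that defines the ridge, averaged 9.06 in E10.5 and 4.23 in E13.5 forelimb. The sums add linear levels, so a bright marker such as Fgf8 at E10.5 weighs heavily in them. From E9.5 to E10.5 forelimb, where Wnt6 was down-regulated, the ridge sums overlapped. The part of either marker list in the Wnt6 result was not tested.

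**Figure D2:**
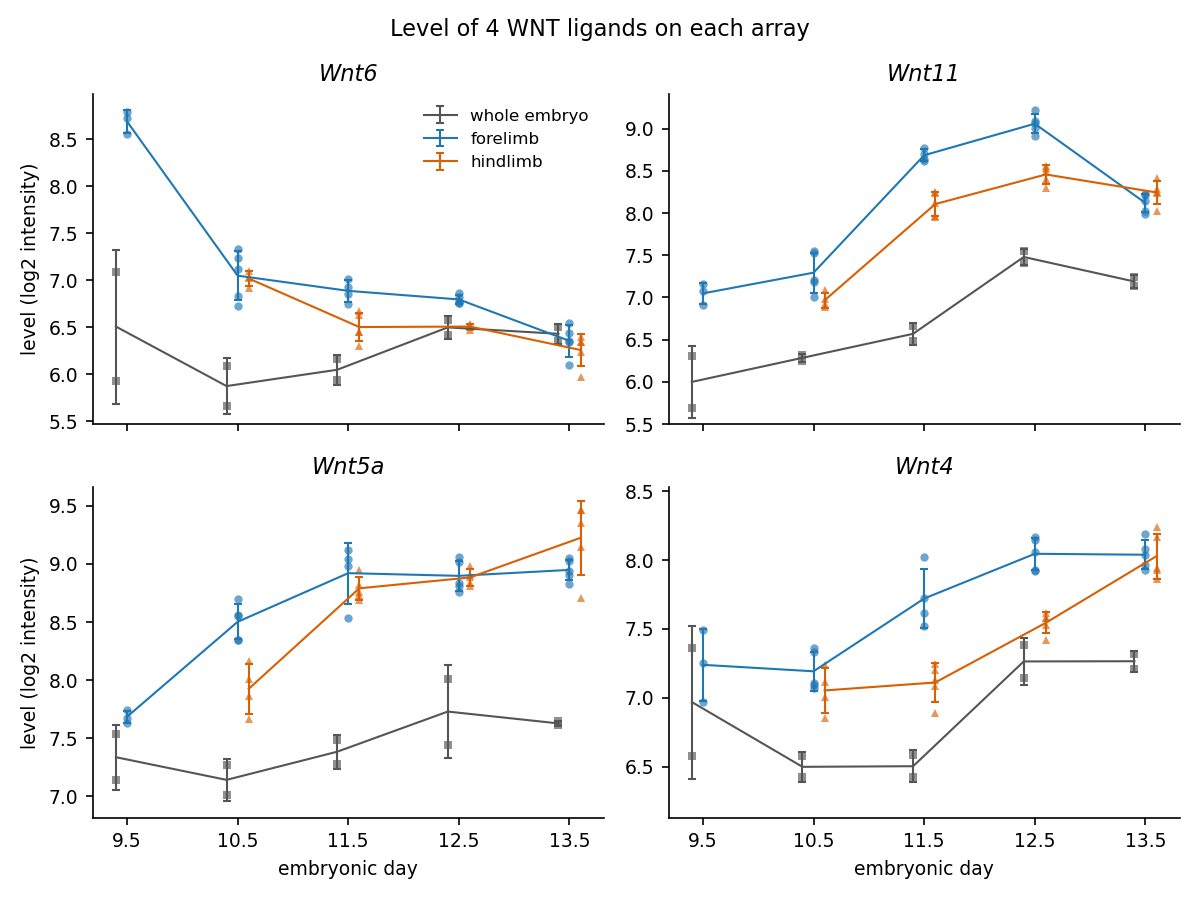
Level of Wnt6, Wnt11, Wnt5a and Wnt4 (log2 intensity, axes cut to each gene's range) against embryonic day in whole embryo, forelimb and hindlimb. Points are single arrays, lines join group means and bars are SD. Wnt6 is highest in E9.5 forelimb, at 8.69, and Wnt11 in E12.5 forelimb, at 9.06, while Wnt5a and Wnt4 are higher in the limbs at E13.5 than at E10.5.

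Wnt11, a ligand that guides cell movement in many tissues, was up-regulated in 6 of the 9 limb groups and changed most between E10.5 and E11.5. Forelimb read 7.16, 6.91 and 7.08 at E9.5, then 7.21, 7.52, 7.18, 7.0 and 7.55 at E10.5, while whole embryo read 6.30 and 5.70, then 6.25 and 6.32. Forelimb read 8.62, 8.71, 8.64 and 8.77 at E11.5, 9.06, 8.91, 9.22, 9.01 and 9.09 at E12.5, and 8.21, 8.15, 8.02, 7.99 and 8.22 at E13.5. The E11.5 arrays lay above every E10.5 array, and the E13.5 arrays below every E12.5 array. Hindlimb read 6.92, 7.09, 6.98 and 6.88 at E10.5, 7.97, 8.12, 8.25, 7.95 and 8.24 at E11.5, 8.29, 8.40, 8.53, 8.56 and 8.50 at E12.5, and 8.28, 8.25, 8.03, 8.24 and 8.42 at E13.5. Whole embryo read 6.66 and 6.48 at E11.5, 7.41 and 7.55 at E12.5, and 7.13 and 7.25 at E13.5. Every limb array of Wnt11 lay above both whole-embryo arrays of its stage.

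The excess of Wnt11 over whole embryo was 1.05 (SE 0.13, adjusted p = 5.18e-08) in E9.5 forelimb, where the array controls of the groups also differed. It was 1.01 at E10.5, 2.12 (SE 0.13, 4.33-fold, adjusted p = 2.53e-18) at E11.5 and 1.58 (SE 0.12, adjusted p = 8.12e-15) at E12.5. In hindlimb it was 1.54 (SE 0.12, adjusted p = 1.58e-14) at E11.5 and 1.06 at E13.5. E13.5 forelimb (0.93), E10.5 hindlimb (0.68) and E12.5 hindlimb (0.98) missed the fold threshold at adjusted p under 0.001. Several of these calls lie at that threshold. The E9.5 difference was 0.74 without the second whole-embryo array and 0.995 without the first forelimb array, under the threshold, and its adjusted p was 0.0612 on those 5 arrays alone. The E10.5 forelimb difference was 0.97 without the first whole-embryo array, 0.95 without the second forelimb array and 0.94 without the fifth. After quantile normalization it was 0.64, and the call was lost. The E13.5 hindlimb difference was 0.997 without the first whole-embryo array, under the threshold, and the E12.5 hindlimb difference rose past the threshold to 1.05 without the second.

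Within the limbs, Wnt11 was up-regulated from E10.5 to E11.5, by 1.39 (SE 0.10, adjusted p = 7.01e-15) in forelimb and 1.14 (SE 0.10, adjusted p = 1.39e-12) in hindlimb. It was the only ligand called in either step, where 2.07% and 2.32% of all genes were called. No ligand was called from E11.5 to E12.5 in forelimb (0.764% of all genes) or hindlimb (0.824%), nor from E12.5 to E13.5 in forelimb (2.71%) or hindlimb (1.95%). In these 4 steps, limma gave 17 ligand values of 40 at an unadjusted p under 0.05 and 14 at an adjusted p under 0.05. The largest of them was the difference of -0.94 (SE 0.09, adjusted p = 2.42e-11) in Wnt11 from E12.5 to E13.5 forelimb.

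Wnt5a, the mesenchymal ligand of limb outgrowth, was up-regulated in 7 of the 9 limb groups. Forelimb read 7.74, 7.68 and 7.64 at E9.5 and whole embryo 7.53 and 7.14, a difference of 0.35 that missed the threshold. Forelimb then read 8.70, 8.56, 8.35, 8.35 and 8.55 at E10.5, 8.98, 9.04, 8.54 and 9.12 at E11.5, 8.76, 9.02, 8.81, 9.05 and 8.84 at E12.5, and 9.05, 8.83, 9.02, 8.94 and 8.90 at E13.5. All of these arrays lay above every E9.5 forelimb array, across the array sets. Hindlimb read 7.86, 8.01, 7.67 and 8.16 at E10.5, 8.69, 8.73, 8.95, 8.75 and 8.82 at E11.5, 8.89, 8.81, 8.83, 8.91 and 8.98 at E12.5, and 9.46, 9.35, 9.46, 8.71 and 9.14 at E13.5. Whole embryo read 7.02 and 7.27, then 7.28 and 7.49, then 7.45 and 8.01, then 7.64 and 7.61 at the same stages. From E10.5 on, every limb array lay above both embryo arrays of its stage.

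The excess of Wnt5a over whole embryo in forelimb was 1.36 (SE 0.15, adjusted p = 2.39e-10) at E10.5, 1.54 (SE 0.16, adjusted p = 2.29e-11) at E11.5. It was 1.17 (SE 0.15, adjusted p = 9.58e-09) a day later and 1.32 (SE 0.15, adjusted p = 4.85e-10) in E13.5 forelimb. In hindlimb it was 0.78 at E10.5, not called, and 1.41, 1.15 and 1.60 (3.02-fold, adjusted p = 2.80e-12) at the later stages. At E12.5, where the embryo arrays were far apart, the differences were 0.88 and 0.87 without the first embryo array, under the threshold in both limbs. Between E10.5 and E13.5, Wnt5a was up-regulated in hindlimb, by 1.30 (SE 0.12, adjusted p = 1.35e-12), while its change in forelimb was 0.45 (SE 0.11, adjusted p = 8.33e-04). The forelimb change less the hindlimb change was -0.85 (SE 0.17, adjusted p = 3.57e-04), 1.80-fold and so not called.

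The 4 probe sets of Wnt5a did not read alike. Probe sets 1436791_at, 1437673_at and 1448818_at had group means from 6.69 to 10.7, and 1456976_at from 4.20 to 6.11, in the lower part of the array's scale. The excess in E11.5 forelimb was 1.16, 2.95 and 1.85 by the first 3 and 0.18 by 1456976_at, which was called against whole embryo in the 2 limbs of E13.5 alone (1.74 and 1.91). Over the 9 limb groups, 1437673_at was called in 9, 1448818_at in 7, 1436791_at in 2 and 1456976_at in 2. With the probe set of highest mean, 1436791_at, in place of the average, the Wnt5a differences ran from 0.32 in E13.5 forelimb to 0.88 in E10.5 forelimb in the 5 comparisons whose call was lost. By the same probe set the forelimb change less the hindlimb change was -1.11 (adjusted p = 3.72e-05), which was called. From E10.5 to E13.5, 1437673_at went from 9.28 to 9.59 in forelimb and from 8.52 to 9.97 in hindlimb. Probe set 1448818_at went from 9.63 to 10.06 and from 8.85 to 10.17. The dim 1456976_at, which is part of the average, went from 5.10 to 5.95 and from 5.00 to 6.11.

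Wnt4, a ligand of developing joints and kidney, was up-regulated against whole embryo in E11.5 forelimb alone. There forelimb read 7.52, 7.72, 8.02 and 7.62, hindlimb 7.20, 7.13, 7.25, 6.89 and 7.09, and whole embryo 6.42 and 6.59, so that the 3 groups did not overlap. The forelimb excess was 1.22 (SE 0.15, 2.32-fold, adjusted p = 1.42e-09). Forelimb read 6.97, 7.25 and 7.49 at E9.5, 7.33, 7.11, 7.36, 7.09 and 7.07 at E10.5, 7.93, 8.06, 8.15, 8.17 and 7.92 at E12.5, and 7.92, 8.19, 8.03, 7.97 and 8.08 at E13.5. Hindlimb read 7.12, 7.01, 7.24 and 6.86 at E10.5, 7.42, 7.58, 7.53, 7.58 and 7.62 at E12.5, and 7.86, 8.17, 7.94, 8.24 and 7.93 at E13.5. Hindlimb at E12.5 lay below every forelimb array of that stage and at E13.5 overlapped it. Whole embryo read 7.36 and 6.58 at E9.5, 6.42 and 6.58 at E10.5, 7.14 and 7.38 at E12.5, and 7.32 and 7.21 at E13.5. From E10.5 on the limb arrays were higher than both embryo arrays at every stage, and 5 of these 7 uncalled differences, from 0.61 to 0.78, had an adjusted p under 0.001.

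From E10.5 to E13.5 Wnt4 changed by 0.85 (SE 0.11, adjusted p = 3.53e-09) in forelimb, 0.97 (SE 0.11, adjusted p = 4.71e-10) in hindlimb and 0.77 (SE 0.17, adjusted p = 2.13e-04) in whole embryo, none of them past the fold threshold. After quantile normalization both limb values were called, at 1.00 each, and the E11.5 excess was 0.88 and not called. The hindlimb value also passed without the third E10.5 array (1.04) or the first E13.5 array (1.02). The 2 Wnt4 probe sets differed in the excess over whole embryo, which from E10.5 on ran from 0.82 to 1.58 by 1441687_at, called in 5 of the 9 limb groups, and from -0.26 to 0.85 by 1450782_at, called in none. Markers of joints, cartilage and muscle were higher at the later stages. Of 5 joint markers measured, 3 were up-regulated from E10.5 to E11.5 in forelimb and 4 in hindlimb, and of 10 cartilage markers 8 were up-regulated between E10.5 and E13.5 in each limb, beside 2.07%, 2.32%, 10.6% and 11.1% of all genes called in these comparisons. Of 8 skeletal muscle markers, 6 were up-regulated and 1, Pax3, down-regulated from E10.5 to E11.5 in each limb. The summed joint level ran from 10.54 to 10.99 in E10.5 forelimb and from 12.05 to 12.26 in E13.5 forelimb, and the summed muscle level from 9.09 to 10.36 and from 14.6 to 14.67. In E11.5 forelimb, where Wnt4 was called, the muscle sum was 12.86 to 13.27, against 10.84 to 12.35 in E11.5 hindlimb and 12.18 to 12.56 in whole embryo, without overlap with forelimb. The joint sum was 11.78 to 11.99, against 11.47 to 11.79 and 9.42 to 9.78. Myog, which drives muscle cells to mature, averaged 10.01 in E11.5 forelimb and 8.66 in E11.5 hindlimb. No marker of these lists is listed at 0, which again does not show detection. The part of these cells in the Wnt4 levels was not tested.

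**Figure D3:**
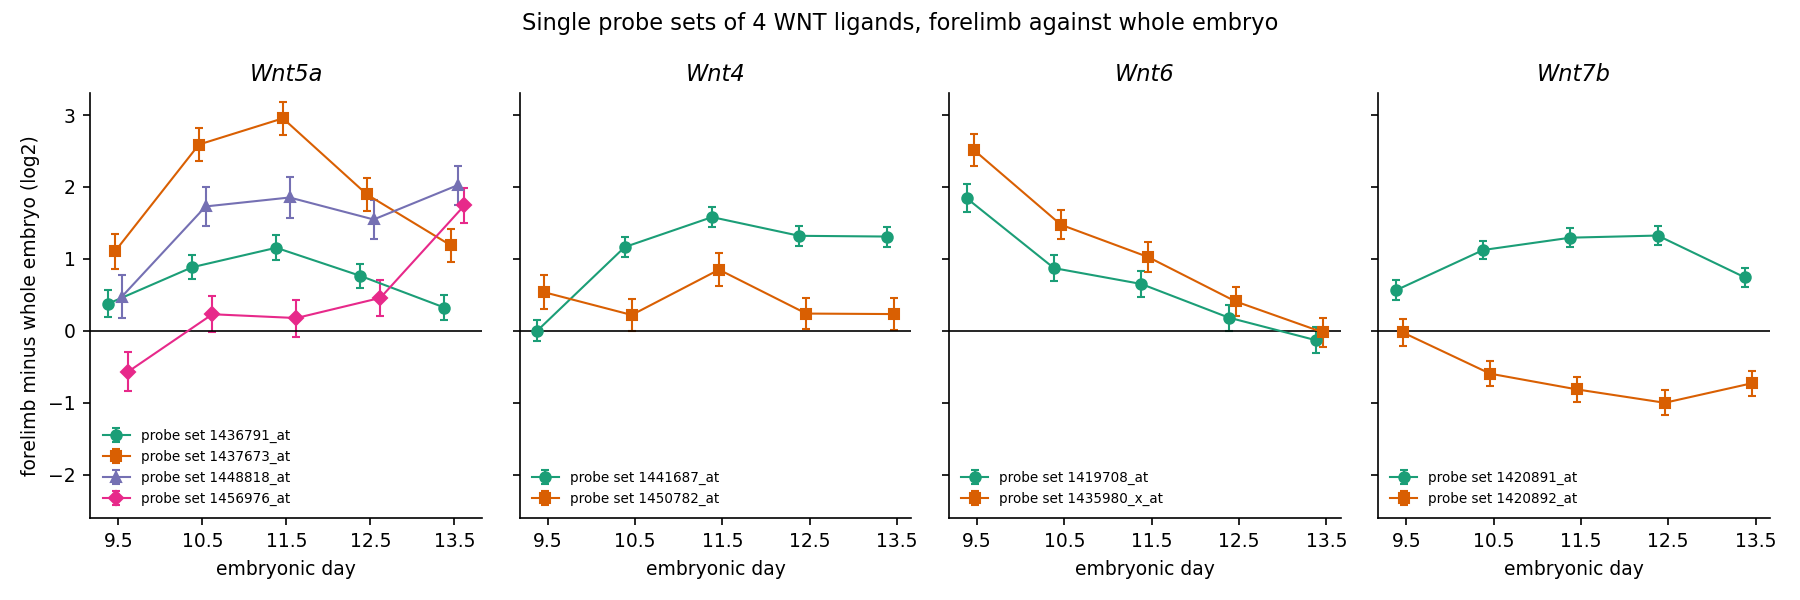
Forelimb level minus whole-embryo level of the same stage (log2) by single probe set for Wnt5a, Wnt4, Wnt6 and Wnt7b. Points are limma differences over the arrays and bars their SE. The Wnt7b probe sets lie on opposite sides of 0 from E10.5 on, and 1 of the 4 Wnt5a probe sets differs in course from the others.

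Wnt7b, an ectodermal ligand, was not called as an average of its 2 probe sets, which differed in direction. Probe set 1420891_at read 6.73, 6.52, 6.73, 6.60 and 6.69 in E12.5 forelimb and 5.30 and 5.36 in whole embryo. Probe set 1420892_at read 8.21, 8.10, 8.02, 8.13 and 8.01 in the same forelimb arrays and 9.19 and 8.99 in whole embryo. By the former every limb array lay above the embryo (1.32, SE 0.13, adjusted p = 2.51e-12), and by the latter every one lay below (-1.0, SE 0.17, adjusted p = 3.69e-06). From E10.5 on, the limb was higher in 8 of 8 groups by 1420891_at, from 0.74 to 1.32, with 4 called, and in 0 of 8 by 1420892_at, from -1.12 to -0.59, with 3 called. At E9.5 the differences were 0.56 and -0.02. The averaged Wnt7b level differed from whole embryo by -0.06 to 0.27, and no direction for the gene against whole embryo can be given from these arrays. Within the forelimb from E10.5 on, where the arrays are of the same set, the average was 7.37 at E12.5, against 6.76 at E10.5 and 6.90 in the last stage, with no step called. The probe sets differed there too. At E10.5, E12.5 and E13.5, 1420891_at averaged 5.80, 6.65 and 5.81, and 1420892_at averaged 7.73, 8.09 and 7.99.

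Wnt5b, which resembles Wnt5a in sequence and acts in cartilage, was not called in any of the 29 comparisons, and its level was lower at the later stages. Forelimb read 7.15, 7.0 and 7.59 at E9.5, 6.78, 6.54, 6.78, 6.68 and 6.51 at E10.5, and 5.76, 5.85, 5.68, 5.58 and 5.71 at E13.5. These stages did not overlap, though those of E9.5 are of the other array set. From E10.5 to E13.5 the change was -0.94 (SE 0.09, adjusted p = 5.13e-12) in forelimb, -0.75 (SE 0.10, adjusted p = 8.49e-09) in hindlimb and -0.59 (SE 0.15, adjusted p = 8.69e-04) in whole embryo, none past the fold threshold. Against whole embryo the limb differed by -0.08 to 0.54. Its probe sets 1422602_a_at and 1439373_x_at read alike, with forelimb changes from E10.5 to E13.5 of -0.89 and -1.0.

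Wnt3, a signal from the ectoderm needed for the ridge, Wnt2b, a mesodermal ligand, Wnt10a, a ligand of teeth and skin, and Wnt10b, which acts in bone and fat, varied little. Over the 14 groups, the means of Wnt10a ran from 5.97 to 6.62, of Wnt10b from 5.65 to 6.08, of Wnt2b from 3.73 to 4.31 and of Wnt3 from 3.60 to 4.15. Neighbours in the order of group means lay within the larger of their SDs in all 13 steps for Wnt2b and for Wnt3. In the same order, 1 of 13 steps of Wnt10a and 1 of Wnt10b exceeded it. Neighbours in a sorted order lie close, so these steps do not show that groups further apart are alike. Wnt2b was at least 4.22 in E9.5 forelimb and at most 4.05 in E10.5 forelimb, a difference of -0.46 across the array sets. The lowest adjusted p in the 29 comparisons was 0.00109 for Wnt10a, 0.00407 for Wnt2b, 0.0138 for Wnt3 and 0.0322 for Wnt10b, and the largest difference, in Wnt10a, was 0.49 in size. The Wnt3 and Wnt2b probe sets lay below the median of all probe sets, 5.31, on every array, with highest values of 4.39 and 4.48. The files hold no detection calls, so these values do not show whether the transcripts were absent or too dim to follow.

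**Figure D4:**
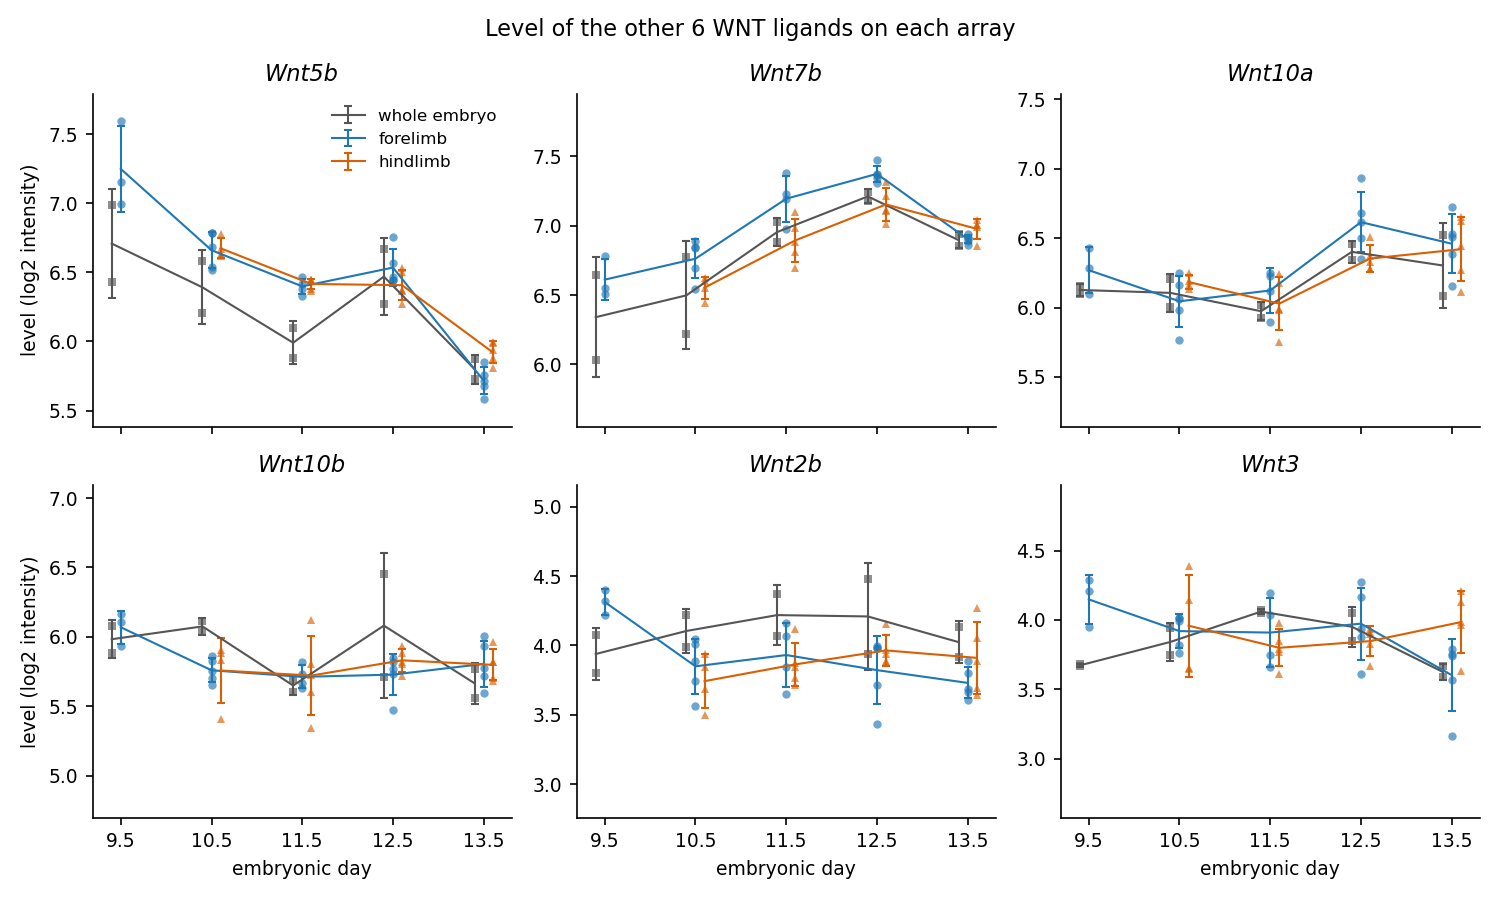
Level of the 6 ligands that were not called (log2 intensity, axes of at least 2 log2 units) against embryonic day in whole embryo, forelimb and hindlimb. Points are single arrays, lines join group means and bars are SD. Wnt5b is lower at E13.5 than at E10.5 in all 3 tissues, and Wnt2b and Wnt3 stay below 4.5 throughout.

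The order of the 14 groups differed between the called ligands. For Wnt6, E9.5 forelimb came first, at 8.69 ± 0.12 (SD, n = 3), with a distance of 1.64 to the next group, across the array sets. E10.5 forelimb (7.05 ± 0.26, n = 5) and E10.5 hindlimb (7.02 ± 0.08, n = 4) followed and did not differ beyond their spread. For Wnt11, E12.5 forelimb (9.06 ± 0.11, n = 5), E11.5 forelimb (8.69 ± 0.07, n = 4) and E12.5 hindlimb (8.46 ± 0.11, n = 5) were each separated by more than the larger SD. For Wnt5a, the first 6 groups, from E13.5 hindlimb (9.22 ± 0.32, n = 5) to E11.5 hindlimb (8.79 ± 0.10, n = 5), followed each other within their spread. The first and last of these groups still lay further apart than either SD. This order is that of the average, and the Wnt5a probe sets differed in course within forelimb. From E11.5 to E13.5, 1436791_at went from 10.72 to 10.20 and 1437673_at from 10.08 to 9.59. Over the same stages 1448818_at went from 9.97 (SD 0.66) to 10.06, and the dim 1456976_at from 4.91 to 5.95. For Wnt4 the first 3, E12.5 forelimb, E13.5 forelimb and E13.5 hindlimb, lay between 8.03 and 8.05. All 5 whole-embryo groups came below all limb groups from E10.5 on for Wnt5a.

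Between the limbs, no ligand was called at the same stage, where the called share of all genes was 0.566% in E10.5 limbs, 0.412% in E11.5 limbs, 0.506% a day later and 0.286% at E13.5. Of the 40 values, limma gave 15 at an unadjusted p under 0.05 and 6 at an adjusted p under 0.05. The 4 with an adjusted p under 0.001 were all higher in forelimb. They were Wnt5a at E10.5 (0.58, SE 0.12), Wnt4 at E11.5 (0.61, SE 0.11) and Wnt11 at E11.5 (0.58, SE 0.10) and at E12.5 (0.60, SE 0.09). In each of them every forelimb array lay above every hindlimb array. They were picked by their adjusted p on the same arrays, so this separation adds no support. At E13.5 no value had an adjusted p under 0.05, and 3 of 10 had an unadjusted p under 0.05.

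Forelimb was also set against hindlimb a day older, since the hindlimb bud forms later. No ligand was called in E10.5 forelimb against E11.5 hindlimb (0.989% of all genes), E11.5 against E12.5 (0.28%) or E12.5 against E13.5 (1.46%). Of these 30 values, limma gave 11 at an unadjusted p under 0.05 and 7 at an adjusted p under 0.05. Wnt11 was lower in E10.5 forelimb than in E11.5 hindlimb, by a difference of -0.81 (SE 0.09, adjusted p = 7.95e-09), and higher in E12.5 forelimb than in E13.5 hindlimb, by 0.81 (SE 0.09, adjusted p = 1.64e-09). E11.5 forelimb and E12.5 hindlimb had no ligand at an adjusted p under 0.05, and 2 at an unadjusted p under 0.05.

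From E10.5 to E13.5, no ligand was called in forelimb (10.6% of all genes), 2 were up-regulated in hindlimb (11.1% of all genes), and none was called in whole embryo (11.2% of all genes). The hindlimb calls were Wnt5a, above, and Wnt11, at 1.28 (SE 0.10, adjusted p = 3.98e-15). In forelimb, where Wnt11 had passed its peak by E13.5, its change was 0.83 (SE 0.09, adjusted p = 2.11e-10), and in whole embryo 0.90 (SE 0.15, adjusted p = 1.91e-06). In forelimb and in whole embryo, limma gave 7 of the 10 ligands at an unadjusted p under 0.05, and as many at an adjusted p under 0.05. The share of all genes at that threshold is not given here, so whether 7 is many cannot be said. No ligand was called for the forelimb change less the hindlimb change (0.918% of all genes), where 3 of 10 had an unadjusted p and 2 an adjusted p under 0.05.

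**Figure D5:**
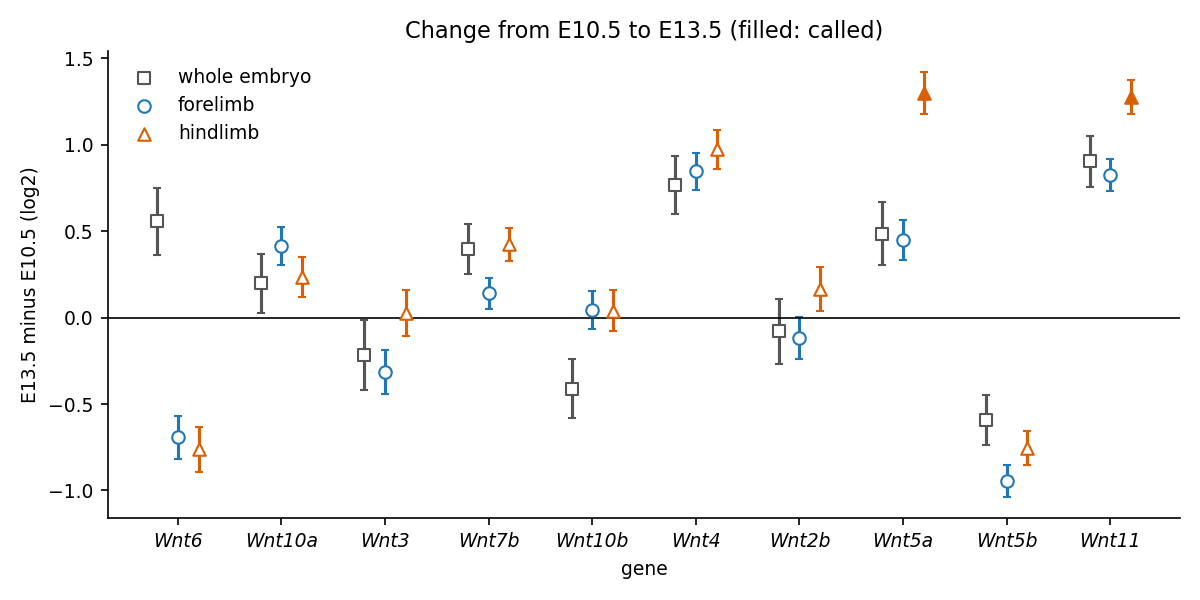
Change from E10.5 to E13.5 (log2) of the 10 ligands in whole embryo, forelimb and hindlimb, with SE as bars and called values filled. Wnt5a and Wnt11 in hindlimb, at 1.30 and 1.28, are the filled points, and Wnt6 is below 0 in both limbs and above 0 in whole embryo.

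Over the 38 limb arrays from E10.5 on, which share stages and litters, the ligands varied together in part. Pearson's r was 0.91 between Wnt7b and Wnt11, 0.77 between Wnt5b and Wnt6, -0.65 between Wnt5a and Wnt6 and 0.69 between Wnt5a and Wnt11. Wnt6 and Wnt10a, next to each other on chromosome 1, had an r of -0.21. The genes of most similar course were Susd4 for Wnt6 (r = 0.91), Armcx6 and Six2 for Wnt11 (0.96 each), Runx1t1 for Wnt5a (0.95), Chrna1 and Adamts5 for Wnt4 (0.95 each), Slc4a1ap for Wnt5b (0.96), Dlx5 for Wnt7b (0.93) and Siah2 for Wnt10a (0.77). For Wnt2b, Wnt3 and Wnt10b the highest r was 0.57, 0.52 and 0.55. These values describe a shared course over stages and limbs and carry no test. Those of Wnt7b rest on the average of 2 probe sets that differed in course.

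Other genes of the pathway gave the setting of the ligands. Their counts are to be read beside the shares of all genes called, which were 10.49% up and 3.44% down in E10.5 forelimb against whole embryo, 5.54% and 8.12% in E13.5 forelimb, and 10.6% in either direction from E10.5 to E13.5 forelimb. Of 9 other WNT genes, none was up-regulated and 3 were down-regulated in E10.5 forelimb against whole embryo, Wnt2 by a log2 difference of -2.16, Wnt1, a ligand of the neural tube, by -1.41 and Wnt3a by -1.31. Of 8 genes of WNT secretion and release, 3 were up-regulated there and none down-regulated, among them the glypican Gpc3 (2.76), and at E13.5 the counts were 3 and 2. Wls, which carries the ligands to the cell surface, was up-regulated at E13.5 (1.41), while Porcn, which attaches their lipid, was down-regulated (-1.33).

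Of 16 receptors and co-receptors, 5 were up-regulated and 1 down-regulated in E10.5 forelimb (10.49% and 3.44% of all genes), led by Ptk7 (3.78), a co-receptor of the planar polarity pathway, and between E10.5 and E13.5 forelimb 3 and 1 (10.6% of all genes in either direction), with Fzd8 (2.55) and Fzd9 (2.53) up. Of 12 secreted inhibitors, 6 and none were called in E10.5 forelimb, with Wif1 at 3.39, and 5 and 3 from E10.5 to E13.5, with Dkk2 at 3.58 and Sost at -2.54. Of 9 R-spondins and their receptors, 1 was up-regulated in E10.5 forelimb, near the share of all genes, and 1, Lgr5 (1.03), was up-regulated and 1, Rspo4 (-1.84), down-regulated from E10.5 to E13.5.

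Inside the receiving cell, 3 of 11 measured beta-catenin transducers were up-regulated in E10.5 forelimb, where 10.49% of all genes were, Ctnnb1, the gene of beta-catenin itself (2.30), Lef1 (2.19) and Axin1 (1.21), and none was down-regulated. Of 10 feedback targets of beta-catenin, 3 were up-regulated there, with Nkd2 at 1.53 and Notum at 1.42, and from E10.5 to E13.5 forelimb 2 were up-regulated and 2 down-regulated, with Dkk1 at -1.41. Of 11 planar polarity core genes, 1 was up-regulated in E10.5 forelimb, Dvl2 (2.26), which is near the share of all genes, and 2 were down-regulated (3.44% of all genes), while at E13.5 none was up-regulated and 2, Celsr3 (-2.98) and Celsr2 (-1.79), were down-regulated (8.12% of all genes).

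Markers of nerve tissue, a part of the whole embryo that the limb mostly lacks, moved with every comparison with whole embryo. In E10.5 forelimb 10 of 10 neural markers were down-regulated and none up-regulated, and in E9.5 forelimb 8 and none, beside 3.44% and 1.61% of all genes down. Their summed level lay between 12.4 and 14.5 in whole embryo and between 7.86 and 10.99 in the limbs, with Sox2 at 3.54 in E10.5 forelimb and 10.9 in whole embryo. Limb mesenchyme markers moved the other way, with 9 of 10 up-regulated in E9.5 and in E10.5 forelimb (2.08% and 10.49% of all genes), and summed levels of 12.45 to 13.46 in the limbs and 10.43 to 11.79 in whole embryo. The share of either in the ligands' differences was not tested.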

How the data were processed

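RNA of FVB mouse forelimb, hindlimb and whole embryo was hybridised to Affymetrix whole-genome mouse arrays after 2-cycle biotin labelling, with 1 sample per array. RMA, in a version not given in the sources used here, was the authors' step for background, normalization and summary by probe set, and they also corrected a blemish in the readings of 1 whole-embryo array (E12.5). What was deposited are linear intensities. Log2 was taken first, since the values carry no log. Of 45101 probe sets, the 34958 with 1 gene symbol were averaged by gene, which gave 18194 genes, and 932 with several symbols and 9211 not listed were left out. Groups follow the array titles. A single limma model (version 3.58.1, R 4.3.3) held all 14 groups with 37 residual degrees of freedom, moderated by empirical Bayes and adjusted by Benjamini-Hochberg over all genes of a comparison, or over all single-symbol probe sets where a probe set is given. The script was tested on simulated data. The number of arrays limits the precision.

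Named were the 10 ligands in every comparison, at most 3 called genes of largest difference from each other list (E10.5 or E13.5 forelimb against whole embryo, or E13.5 against E10.5 forelimb), and for each ligand the genes of highest r, with at least 1 log2 unit of range, besides marker genes. Wls, Porcn, Krt5, Sox2, Tbx5 and Pitx1 were named after their values were seen. The ligands and lists were chosen with earlier results of these data known. Alternatives were fits on the compared groups alone, the probe set of highest mean, quantile normalization, no genes under 6 log2 in every group, trended and robust moderation, an adjusted p under 0.05 with no fold threshold, the 2 arrays of conflicting labels left out or moved, a replicate block (statmod 1.5.0), and each array left out.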

Additional observations from a re-analysis of the deposited data

Results flagged for a closer look

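Over 80 sets of 4 or 5 arrays, that is 10 ligands in 8 groups, Dixon's rule for a single far value marked 2, and chance marks about 1 in 20. Wnt7b read 6.85 on the first E13.5 hindlimb array and 6.99 to 7.04 on the other 4. Wnt10b read 5.41 on the third E10.5 hindlimb array and 5.84 to 5.90 on the other 3. Neither gene was called in any comparison.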

How the results depend on the processing

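With whole embryo at 2 arrays a stage, 1 litter per limb stage, no detection calls and 2 array sets, the differences from whole embryo are the least certain values here, and signal over background could not be weighed for Wnt2b and Wnt3. The count of ligand values called as higher than whole embryo was 9 in place of 17 with the probe set of highest mean, beside 3 down-regulated values, all of Wnt7b, whose E12.5 forelimb difference reversed from 0.16 to -1.0. That setting left 0 calls for the change in a limb less that in whole embryo, in place of 2, and gave 1, Wnt5a, for the forelimb change less the hindlimb change, in place of 0. Quantile normalization gave 13 calls against whole embryo, without Wnt6 in either limb and Wnt11 in forelimb at E10.5 and Wnt4 in E11.5 forelimb, and 1 call, Wnt4, from E10.5 to E13.5 in forelimb, in place of 0. An adjusted p under 0.05 with no fold threshold gave 33 values higher and 2 lower against whole embryo, 6 for forelimb against hindlimb of the same stage, 7 against the next stage, 29 over consecutive stages, 7, 6 and 7 from E10.5 to E13.5 in forelimb, hindlimb and whole embryo, and 2 for the forelimb change less the hindlimb change. In each of these the cause was not tested, apart from the looser threshold itself.

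The other counts kept within 1.5 times of their values under these settings, and all did so with the compared groups fitted alone (15 in place of 17 against whole embryo), with dim genes left out (10952 genes and 8 of the 10 ligands tested), with trended and robust moderation, and with the 2 arrays of conflicting labels left out (17) or moved (18). With any 1 array left out, calls against whole embryo ran from 14 to 18 up and 0 down, those from E10.5 to E13.5 in hindlimb from 2 to 3, and those for the change in a limb less that in whole embryo from 0 to 2, with 0 only without the first E10.5 whole-embryo array. Consecutive stages gave 3 calls and the remaining counts were 0. Limb arrays of a stage share replicate numbers, and the labels do not say that a number marks an embryo. The deviations of same-numbered forelimb and hindlimb arrays correlated at r = -0.11 to 0.35, over 0.1 in 9 of 18 pairs. With a replicate block (correlation 0.106) the counts were 17 up and 0 down against whole embryo, 3 over consecutive stages, and the same as without it elsewhere.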
